A study of Rattus norvegicus with 6 samples.

Results

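Circular RNAs (circRNAs) made of exons and already listed in circBase, a public catalogue of circRNAs, were described in the annotation of circRNAs of mouse pancreatic islets. A circRNA was taken as a member where the annotation classed it as exon and gave it a circBase identifier. This held for 5718 of the 14675 exon circRNAs, or 39.0% (exact 95% binomial interval 38.2 to 39.8%), out of 15925 circRNAs of all classes. The other 8957 exon circRNAs had no circBase identifier and are called unlisted. The value used per circRNA was the mean of normalized reads over the back-splice junction, averaged by the authors from 2 samples of normally fed mice. The annotation also holds 6 single-sample columns, which were not used. No replicate error and no number of reads are therefore given here. The same series holds 6 RNA-sequencing libraries of rat islet cells, in which the host genes were followed. Islet cells of Wistar rats aged 12 weeks were dissociated and transfected with a gapmeR against ci-Ins2, a circular RNA from an intron of the insulin gene Ins2 (3 libraries), or with a control gapmeR (3 libraries), and RNA was taken after 48 h.

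An exon circRNA is formed when the splicing machinery joins the end of an exon to the start of the same or of an earlier exon, a step called back-splicing. The closed ring has no free end and no polyA tail, and is therefore more stable against exonucleases than the linear mRNA of its host gene. In neurons, which do not divide, such rings are known to accumulate, and a few of them bind miRNAs or proteins. The back-splice junction is the part of the sequence that tells the ring from the linear transcript.

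Listed circRNAs were the more abundant ones. Their junction mean had a median of 6.93 normalized reads (95% interval of the median 6.54 to 7.14, quartiles 2.94 and 17.5, highest 2536), against 2.08 for unlisted exon circRNAs (quartiles 1.04 and 4.16, highest 1443). They made up 39.0% of the exon circRNAs and 79.5% of the summed junction mean of that class. Means of at least 100 normalized reads were found for 256 listed and 8 unlisted circRNAs. Low values were common in both sets, since 2349 listed circRNAs (41.1%) and 7177 unlisted ones (80.1%) had a mean under 5.

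The share with a circBase entry went up with the junction mean in each of 9 bands. It was 18.4% below a mean of 2 (994 of 5409 exon circRNAs), 49.3% between 5 and 10 (1138 of 2307), 84.1% between 20 and 50 (741 of 881) and 98.2% at 200 or above (111 of 113). The only exon circRNAs without an entry in the highest band were circ_00011 of Mlxipl, the glucose-responsive transcription factor ChREBP, with a mean of 1443, and circ_00143 of Ero1lb, an oxidase that forms disulfide bonds in the endoplasmic reticulum, with a mean of 205. The listed set was concentrated in few molecules. Its 10 highest circRNAs held 10.0% of its summed mean, its 100 highest 35.3% and its 1000 highest 76.3%. Intervals on these shares cover counting error only, and circRNAs of one host share their gene and often a splice site.

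**Figure D1:**
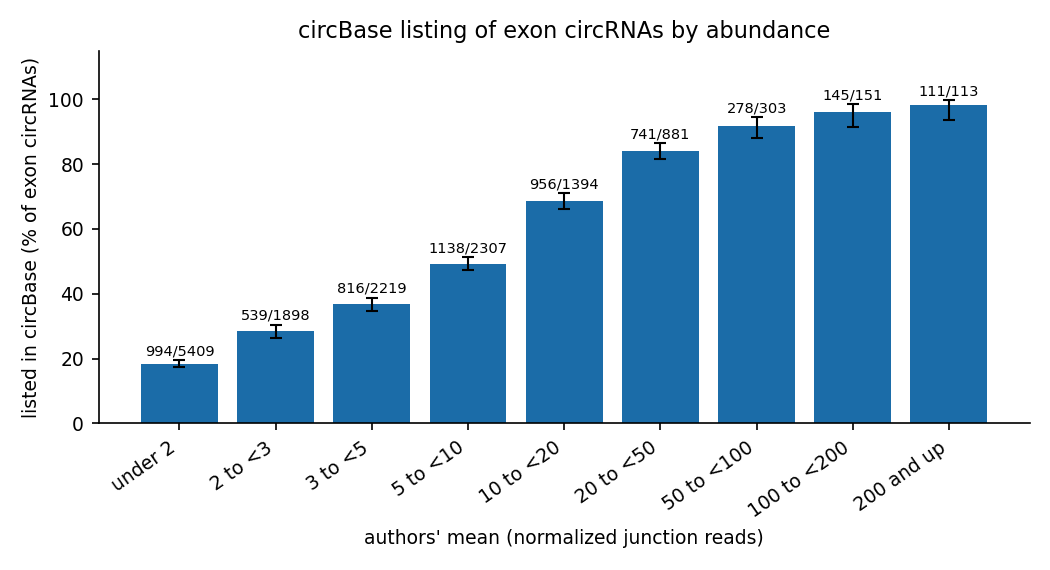
Percentage of exon circRNAs of mouse islets with a circBase entry, by band of the authors' junction mean (normalized reads), with exact 95% binomial intervals. The percentage goes up from 18.4% in the lowest band to 98.2% in the highest.

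Intron and intergenic circRNAs had entries less often than exon circRNAs. The listed share was 39.0% for exon circRNAs, 19.7% for intron circRNAs (183 of 927, interval 17.2 to 22.5%) and 17.6% for intergenic ones (57 of 323, interval 13.6 to 22.3%). Other catalogues held most listed members too. A CIRCpedia identifier was given for 5407 listed circRNAs (94.6%) and 5912 unlisted ones (66.0%), and a circAtlas identifier for 5712 listed (99.9%) and 8271 unlisted ones (92.3%). The 6 listed circRNAs without a circAtlas identifier came from Inpp5b, Farsb, Phykpl, Spast, Dhx40 and Cadps, all with means between 0.952 and 2.47. Neither of these other catalogues held 648 unlisted circRNAs (7.23%).

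The most abundant listed circRNAs came from genes of many functions. First was circ_00001 of Tulp4, a tubby-like protein with a SOCS box, at chr17:6137210-6139156 on the plus strand, with a span of 1947 bases and a mean of 2536 normalized reads. It was the highest of all circRNAs in the annotation. It held 94.4% of the summed mean of the 13 exon circRNAs of Tulp4, of which 8 were listed. The table does not name its genome build, and coordinates are given as deposited.

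The next in rank were circ_00003 of Gigyf2, a protein that represses translation, and circ_00006 of Phf21a, a component of a histone demethylase complex. The Gigyf2 circRNA (chr1:87364103-87380008, plus strand, span 15906 bases) had a mean of 1725, and the Phf21a circRNA (chr2:92214048-92230724, plus strand, span 16677 bases) a mean of 1494. Each held most of the summed mean of the exon circRNAs of its host, 96.9% for Gigyf2 and 97.4% for Phf21a. The circRNA of Hipk3, a protein kinase whose circRNA has been described in many cell types, spanned 1100 bases (circ_00005, chr2:104470748-104471847, minus strand). Its mean was 1471, or 99.6% of the summed mean of its host, and the second listed Hipk3 circRNA, circ_04006, had a mean of 4.50.

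In Dtnb and Tasp1 the leading circRNA held a smaller share of the summed mean of the host. Dtnb, which encodes beta-dystrobrevin of the dystrophin complex, had circ_00007 (chr12:3617605-3648389, plus strand, span 30785 bases) with a mean of 1462, which was 73.9% of the summed mean of its 22 exon circRNAs. Tasp1, the protease that cleaves MLL, had circ_00009 (chr2:140042093-140057499, minus strand, span 15407 bases) with a mean of 1209, or 54.2% of the summed mean of 14 circRNAs. Both hosts were rich in listed members, 14 for Dtnb and 12 for Tasp1. Mettl9, a protein histidine methyltransferase, had circ_00008 (chr7:121047837-121057399, plus strand, span 9563 bases) with a mean of 1266. This was 92.2% of the summed mean of its 3 exon circRNAs. Pip5k1b, a phosphoinositide kinase, had circ_00010 (chr19:24346236-24360151, minus strand, span 13916 bases) with a mean of 1095, and it was the only listed circRNA among 11 of that gene. It held 88.6% of their summed mean.

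The remaining circRNAs among the 15 highest had means between 892 and 1048. They came from Lrch3 (circ_00013, 1048), Strn3, a regulatory subunit of a phosphatase complex (circ_00016, 1009), Zfp148, a zinc finger transcription factor (circ_00014, 1009), Rasa2, a GTPase-activating protein for Ras (circ_00015, 971), Wdr49 (circ_00019, 937), Ankib1, a ubiquitin ligase (circ_00017, 926), and Ttc3, also a ubiquitin ligase (circ_00018, 892). The 15 together held 13.3% of the summed mean of all listed circRNAs. Each carried at least 54.2% of the summed mean of its host. The Wdr49 circRNA was annotated to that gene here, while circAtlas names it as intergenic.

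**Figure D2:**
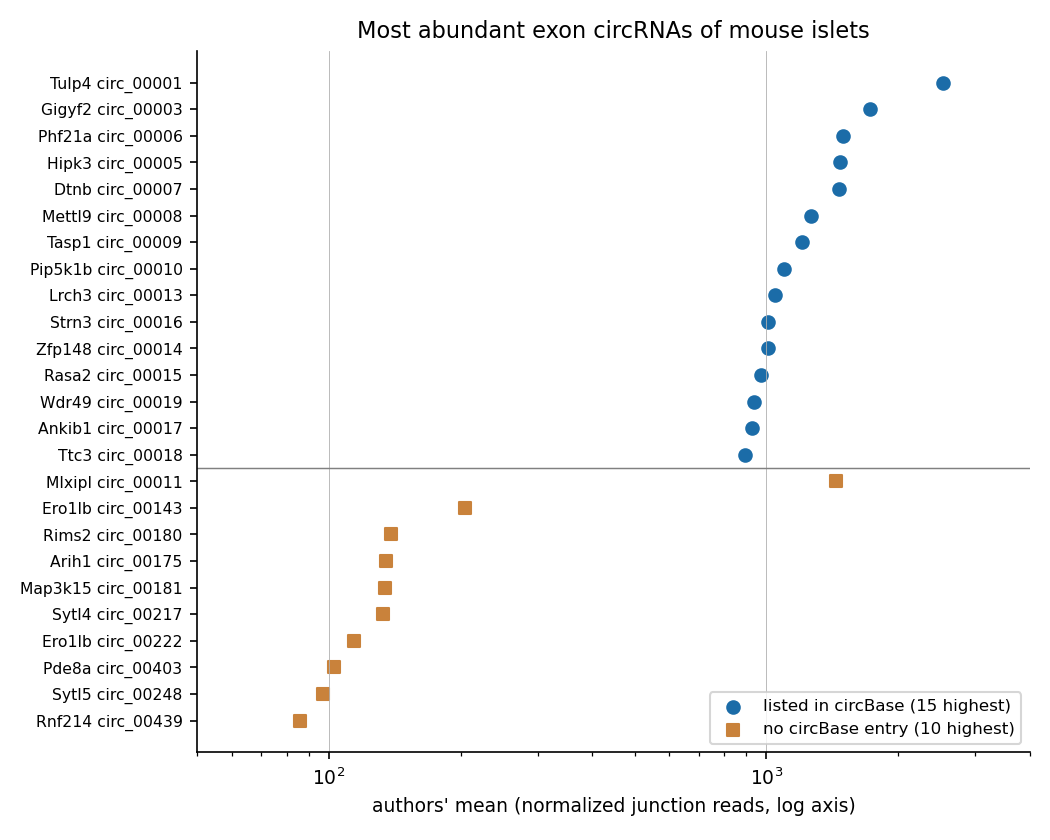
Junction mean (normalized reads, authors' value without replicate error) of the 15 most abundant listed exon circRNAs, and of the most abundant unlisted ones for contrast. Tulp4 leads with 2536 and the fifteenth, Ttc3, has 892, whereas only Mlxipl among the unlisted ones exceeds 205.

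Among the unlisted exon circRNAs the level dropped quickly after the first. After Mlxipl (1443) and Ero1lb (205) came Rims2 (139), Arih1 (135), Map3k15 (135), Sytl4 (133), a second Ero1lb circRNA (114), Pde8a (103), Sytl5 (97.1) and Rnf214 (85.9). Rims2 and Sytl4 encode scaffolds of secretory granule docking. Of the 100 exon circRNAs with the highest mean, 99 were listed, and of the highest 1000, 905.

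The genomic span, from the first to the last base of the ring and including introns that may be spliced out, had nearly the same median in the listed and the unlisted set. The median was 9440 bases for listed circRNAs (95% interval 9076 to 9760, quartiles 3525 and 20464), against 9571 bases for unlisted ones (quartiles 4243 and 19567). Spans under 1000 bases were held by 489 listed circRNAs (8.55%) and 449 unlisted ones (5.01%). At 10000 bases or more the shares were 48.0% and 48.5%. The listed share was 55.6% for spans of 300 to 500 bases (140 of 252) and 35.7% for spans of 5 to 10 kb (1101 of 3087).

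The listed share was highest for spans under 1 kb at each level of abundance, but by little at means of 20 or more. No intervals were computed for these shares. Below a mean of 5, the listed share was 36.8% for spans under 1 kb, 22.2% for 1 to 10 kb and 25.4% for longer ones. At means of 5 to 20 the shares were 69.3%, 54.4% and 57.0%. At means of 20 or more they were 91.2% (104 of 114), 87.9% (605 of 688) and 87.6% (566 of 646). Span and junction mean were hardly related over the 5718 listed circRNAs (Spearman's rho -0.05, a description across circRNAs that share hosts).

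**Figure D3:**
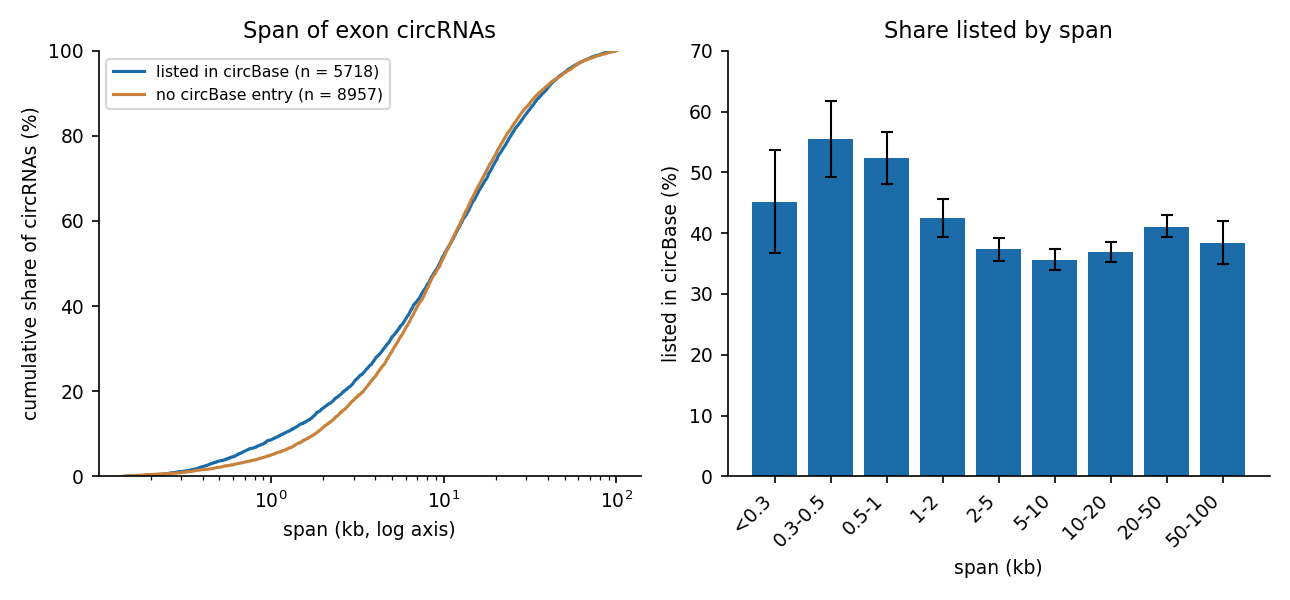
Genomic span of listed and unlisted exon circRNAs, and the percentage listed by band of span, with exact 95% binomial intervals. The medians lie at 9440 and 9571 bases, and the percentage is highest, 55.6%, between 300 and 500 bases.

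The longest listed circRNAs were circ_01564 of Rims2 (98986 bases, mean 12.3), circ_03347 of the splicing factor gene Rbfox2 (98722 bases, mean 8.83), circ_01074 of the cohesin gene Stag1 (98203 bases, mean 22.3) and circ_08101 of Ate1, an arginyltransferase (97722 bases, mean 4.59). The shortest were circ_15734 of Hivep1 (144 bases, mean 1.56), circ_20958 of Mboat2 (147 bases, mean 1.43), circ_03773 of Pabpn1, a polyA-binding protein (153 bases, mean 5.59), and circ_10828 of the chaperone gene Canx (159 bases, mean 1.56). Neither extreme held a circRNA with a mean over 22.3.

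The listed circRNAs came from 2571 host genes. Of these hosts, 1349 (52.5%) had 1 listed circRNA, 541 had 2, 489 had 3 to 5, 157 had 6 to 9 and 35 had 10 or more. Nearly all members, 5684 (99.4%), lay in protein-coding genes, with 31 in lncRNA genes and 3 in pseudogenes. The annotation named an antisense gene for 71 listed circRNAs (1.24%) and 188 unlisted ones (2.10%).

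The noncoding hosts were few but included abundant rings. A230057D06Rik had circ_00022 with a mean of 817 and circ_00172 with a mean of 179, and the pseudogene Nlrp5-ps had circ_00114 with a mean of 166. Lncpint, a lncRNA induced by p53, had circRNAs with means of 61.3 and 36.5.

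Most genes with a listed circRNA also made unlisted ones. By gene identifier, 1721 hosts had both kinds, 850 had listed circRNAs only and 1625 unlisted ones only. In the hosts with both, the circRNA with the highest mean was listed in 1402 (81.5%), whereas on average 45.1% of their exon circRNAs were listed. The highest listed mean exceeded the highest unlisted mean in 1395 of these hosts, was below it in 313 and equal in 13, with a median ratio of 3.42. By median span, listed circRNAs were longer than the unlisted ones of their host in 703 hosts and shorter in 1016.

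Sharing of splice sites was common. Start and end are here the lower and the higher genome coordinate, on either strand. Of the listed circRNAs, 2958 (51.7%) shared their start and 2916 (51.0%) their end with another exon circRNA, and 4256 (74.4%) shared at least 1 of them, against 69.2% of the unlisted ones. Both ends were shared by 1618 listed circRNAs (28.3%) and by 20.8% of the unlisted ones. The median mean was 7.92 for listed circRNAs that shared an end and 4.50 for those that shared none, against 2.38 and 1.56 for unlisted ones.

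The gene with the most listed circRNAs was Rere, a transcriptional corepressor with 22 of its 26 exon circRNAs listed and a summed mean of 1393. Its highest members, circ_00046 (span 33274 bases, mean 415) and circ_00047 (span 470 bases, mean 368), began at the same base of chromosome 4, 150406195, a start used by 5 listed circRNAs of the gene. The circRNAs with genomic spans of 470 and 33274 bases thus had like levels, and the length of the rings themselves is not known. Rims2, the granule scaffold, had 18 of 29 listed, led by circ_00134 (span 49569 bases, mean 206) and circ_00273 (span 927 bases, mean 92.6).

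Several other hosts with many members are genes of trafficking, chromatin or the cytoskeleton. Nbea, which acts in membrane trafficking, had 15 of 24 listed (highest means 274 and 45.2), and Agtpbp1, a tubulin deglutamylase, 15 of 28 (79.4 and 45.7). Rfx3, a ciliogenic transcription factor needed for beta-cell maturation in mice, had 15 of 22 (39.6 and 37.1). Each of the following had 14 listed circRNAs: Dtnb of 22 (highest means 1462 and 298), the endosomal gene Rabep1 of 26 (370 and 312), Stag1 of 24 (45.2 and 25.4), the histone methyltransferase gene Ehmt1 of 27 (30.0 and 24.4) and Atad2b of 24 (26.4 and 14.9). The number of members and their levels did not go together in this group, from Atad2b with a highest mean of 26.4 to Dtnb with 1462.

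In several hosts the leading circRNAs used the same splice site. The highest pair of Dtnb began at the same base, as did that of Rabep1, whose start was used by 6 listed circRNAs. In Strn3, which lies on the minus strand, 10 of the 12 listed circRNAs had the same end coordinate. Ranked by summed mean of their listed circRNAs, the first hosts were Tulp4 (2679), Tasp1 (2227), Dtnb (1945), Gigyf2 (1752) and Phf21a (1520).

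Gene lists for islet functions differed in how many of their exon circRNAs were listed, beside 39.0% over all exon circRNAs and 78.5% over those with a mean of at least 10. The lowest share was that of genes for insulin granules and hormone maturation, 5 of 77 (6.49%, exact interval 2.14 to 14.5%), and 5 of 20 (25.0%) at a mean of at least 10. Higher shares were found for islet transcription factors, 47 of 84 (56.0%, interval 44.7 to 66.8%). Exocytosis and granule docking had 98 of 206 (47.6%, interval 40.6 to 54.6%), a list that includes Dtnb of the dystrophin complex. Receptors, cAMP and kinase signaling had 91 of 204 (44.6%, interval 37.7 to 51.7%). Ion channels, pumps and calcium stores had 73 of 169 (43.2%, interval 35.6 to 51.0%). The last intervals both include 39.0%. At a mean of at least 10 these lists had, in order, 81.8%, 79.2%, 81.4% and 83.3%, near the 78.5% over all exon circRNAs. The share was 41.6% for RNA-binding proteins (156 of 375), a list that includes the methyltransferase gene Mettl9. It was 39.5% for chromatin and histone genes (233 of 590), a list that is not limited to enzymes. The secretory pathway had 34.9% (207 of 593). Ubiquitin ligases and deubiquitinases had 34.5% (164 of 475), and glucose sensing and metabolism 34.1% (15 of 44). A list of hosts whose circRNAs have been described in other tissues had 143 of 245 (58.4%), which is no independent finding because such circRNAs are what a catalogue holds.

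**Figure D4:**
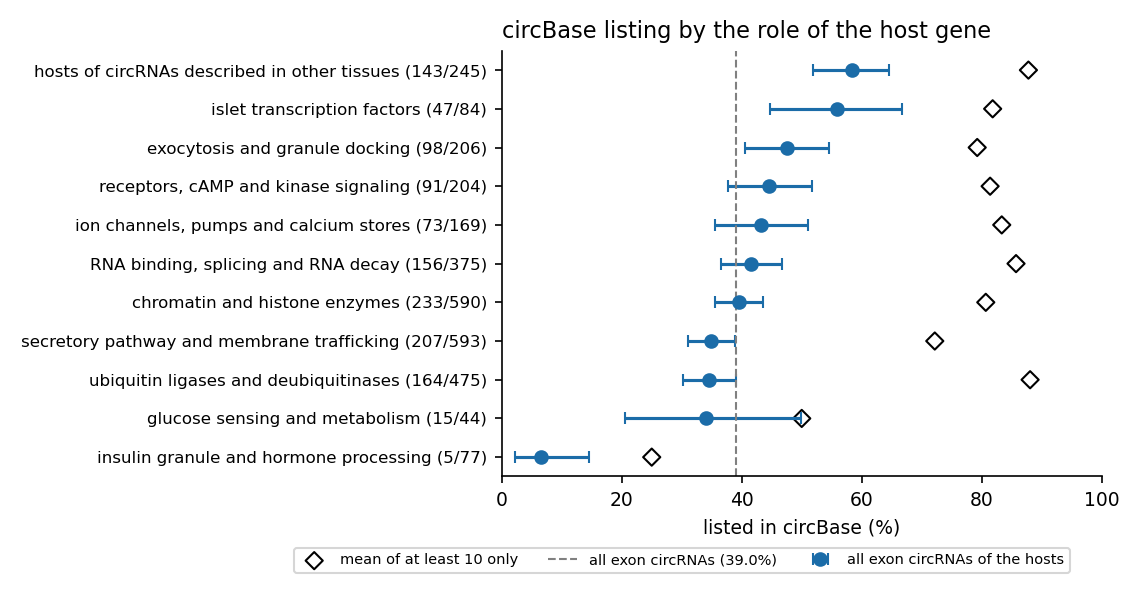
Percentage of the exon circRNAs of each gene list with a circBase entry, for all of them (circles with exact 95% binomial intervals) and for those with a junction mean of at least 10 (diamonds), with 39.0% over all exon circRNAs as the dashed line. Insulin granule genes lie lowest, at 6.49% of 77 and 25.0% of 20.

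A few insulin granule genes had abundant circRNAs with no entry, such as Sytl4 with a mean of 133. Of 15 such hosts, 4 had a listed circRNA. Pcsk2, the prohormone convertase that processes proinsulin and proglucagon, had 1 listed circRNA of 14, circ_00025 (chr2:143687563-143696694, plus strand, span 9132 bases), with a mean of 662, or 87.6% of the summed mean of the gene, and its next highest, unlisted, had 49.4. Ica1, an islet autoantigen of the secretory pathway, had circ_00212 (mean 120), and Ptprn, the granule membrane protein IA-2, had circ_02344 (mean 16.7). Ptprn2 had circ_02011 (mean 15.6) and circ_02726 (mean 11.3), which share their start, out of 19 exon circRNAs.

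For the other granule genes no exon circRNA was listed. This was so for Scg3 (0 of 9, highest mean 28.6), Sytl4 (0 of 8, highest 133) and Chga (0 of 5, highest 14.2). The rest had low means. Ins1, Scg2, Pcsk1, Pam, Scg5 and Slc30a8 had 0 of 2 each, with highest means of 4.98, 6.06, 4.46, 5.89, 8.53 and 8.44. Chgb and Cpe had 0 of 1 each, with means of 1.04 and 4.07. Chga, Chgb, Scg2, Scg3 and Scg5 encode granins, and Slc30a8 the zinc transporter of the granule. The incretin receptor gene Glp1r likewise had 0 of 2, and Ins2 had no circRNA of the exon class.

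In the other lists, exon circRNAs with a mean of at least 10 had an entry in 5 of 10 cases for glucose sensing and metabolism and in 72.2 to 88.1% elsewhere. Unc13b, a priming factor for exocytosis, had circ_00028 (mean 519) and circ_00049 (mean 394), which begin at the same base. The calcium channel gene Cacna1c had circ_00061 (mean 306), the potassium channel gene Kcnh5 circ_00112 (226), the calcium pump gene Atp2a2 circ_00153 (199) and the calcium channel gene Cacna1a circ_00161 (176). Glis3, a transcription factor needed for insulin gene expression, had 7 of 8 exon circRNAs listed, with means of 524, 234 and 107 for circ_00031, circ_00092 and circ_00270. In signaling, Prkce, a protein kinase C, had a circRNA with a mean of 184. The insulin receptor gene Insr had one with a span of 553 bases and a mean of 119.

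The highest listed circRNA of the metabolic genes was that of Acaca, the enzyme of malonyl-CoA synthesis (38.2). Chromatin hosts were led, after Phf21a, by the methyltransferase gene Nsd2 (625), the acetyltransferase gene Kat6b (395) and Ash1l (378), which had 13 of 30 exon circRNAs listed. For ubiquitin enzymes, Ankib1 was followed by the conjugating enzyme gene Ube2k (808), Rnf169 (556) and the deubiquitinase gene Usp3 (339). RNA-binding hosts included Ptbp3 (464) and Cnot6l (349), and secretory pathway hosts Trappc11 (232), Dennd1b (112) and Sec31a (104), a coat protein of vesicles that leave the endoplasmic reticulum.

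By chromosome, the listed share of exon circRNAs lay between 35.2% and 44.8% on the autosomes. It was 27.5% on chromosome X (111 of 404, exact interval 23.2 to 32.1%) and 19.2% on Y (5 of 26). At a mean of at least 10, 58.6% of 70 exon circRNAs of chromosome X were listed, against 78.5% over all chromosomes.

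The rat libraries gave the linear mRNA of the host genes in islet cells with less ci-Ins2. They were made from polyadenylated RNA, so circRNAs, which lack a polyA tail, were not measured there, nor was ci-Ins2. In these libraries the Ins2 mRNA does not check the knockdown. The paper reports less ci-Ins2 by qPCR in rat islet cells given the ci-Ins2 gapmeR, with linear Ins2 unchanged. The transfected oligonucleotides are shown because the values of the rat libraries rest on them. A gapmeR is an antisense oligonucleotide with a DNA gap that directs RNase H to the bound RNA, and this one was designed to the ci-Ins2 junction.
rat ci-Ins2 gapmeR: gcttacagacacatag
control gapmeR: aacacgtctatacgc

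Host genes of listed circRNAs were lower after ci-Ins2 knockdown more often than tested genes as a whole, and few were higher. Of the 2571 mouse hosts, 2354 had an identical gene symbol in the rat table, and 2196 passed the filter on low values, which a gene may also pass through the group where it is higher. The main fit was limma without pairing of the replicates, with Benjamini-Hochberg adjustment over all genes tested. In it 223 hosts were lower (10.2%), beside 3.5% of the 13927 genes tested. It had 12 hosts higher (0.546%), beside 1.01% of the genes tested. Hosts with unlisted exon circRNAs only numbered 1350, with 59 lower (4.37%) and 13 higher (0.963%). The remaining 10381 tested genes had 206 lower (1.98%) and 116 higher (1.12%). The median log2 fold change was -0.04 for hosts of listed circRNAs, 0.00 for hosts of unlisted ones only and 0.01 for the remaining genes.

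The counts depended on the fit and on single libraries. With the replicate number as a block, 410 hosts were lower (18.7%), beside 10.3% of all genes tested, and 69 were higher (3.14%), beside 5.23%. The share of all genes tested moved along with the hosts. With the block, hosts of unlisted circRNAs only had 134 lower (9.93%) and the remaining genes 884 (8.52%). These shares lay closer together than the 4.37% and 1.98% of the main fit. Without control replicate 3 there were 95 hosts lower (4.36%, beside 1.35% of all genes tested), and without control replicate 1 there were 121 (5.55%, beside 2.04%). Without ci-Ins2 replicate 1 there were 133 (6.06%, beside 1.91%), without replicate 2 there were 146 (6.68%, beside 2.24%) and without replicate 3 there were 131 (5.98%, beside 1.89%).

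Gene length moved with the result. The median rat gene length was 78.2 kb for hosts of listed circRNAs, 38.9 kb for hosts of unlisted ones only and 15.3 kb for the remaining genes. In the quartiles below, other genes are all tested genes without a listed exon circRNA, hosts of unlisted ones included. Within the longest quartile, from 57965 bases, 204 of 1381 hosts were lower (14.8%), against 79 of 1425 other genes (5.54%). Hosts in that quartile were longer too, with medians of 120 kb and 95.5 kb, and had higher levels, 12.7 and 8.36 abundance units. In the third quartile the shares were 2.5% and 2.90%, in the second 1.69% and 1.37%, and in the shortest 3.03% (1 of 33) and 0.613%. A length was known for 99.9% of the hosts of listed circRNAs but for 74.0% of the remaining genes, since many of their names matched no annotated gene, so the comparison is void for the remaining genes as a whole and describes only those with a length. The part of gene length in the result was not tested.

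The share of lower hosts was 7.99% for those with 1 listed circRNA (90 of 1127, median gene length 54.6 kb), 11.2% with 2 to 4 (93 of 828, 92.4 kb), 17.3% with 5 to 9 (36 of 208, 129 kb) and 12.1% with 10 or more (4 of 33, 152 kb). By quartile of abundance, from low to high, it was 7.51%, 11.8%, 11.2% and 8.70%, against 1.07%, 2.49%, 3.08% and 2.51% of other genes. Hosts were lower more often than other genes in each abundance quartile. By length this held in the longest quartile but not in the third, where few hosts were lower (15 of 601). The parts of abundance and of length in the result were not tested.

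Among the hosts of the 15 most abundant listed circRNAs, Tulp4 and Ankib1 fell. Tulp4 had 13.4, 12.8 and 11.9 abundance units in ci-Ins2 gapmeR libraries 1 to 3, against 24.4, 22.0 and 22.4 in control gapmeR libraries 1 to 3, with a log2 fold change of -0.81 (SE 0.068, limma adjusted p = 0.0018). Ankib1 had 21.9, 22.3 and 23.0 units in ci-Ins2 gapmeR libraries, against 31.9, 29.0 and 31.1 in control libraries (log2 fold change -0.44, SE 0.056, limma adjusted p = 0.0089). All 3 ci-Ins2 libraries lay below all 3 controls for both genes, and the Ankib1 call was lost without control replicate 3 (limma adjusted p = 0.0549).

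Hipk3 had 42.7, 38.5 and 40.0 units in ci-Ins2 gapmeR libraries, against 49.4, 41.6 and 48.1 in controls, and the groups overlapped (log2 fold change -0.19, SE 0.078, limma adjusted p = 0.237, or 0.0484 with the replicate block). Wdr49 was low, with 1.02, 0.70 and 1.65 units in ci-Ins2 gapmeR libraries and 2.34, 1.81 and 2.88 in controls (log2 fold change -0.67, SE 0.19, limma adjusted p = 0.115, or 0.0073 with the block). Neither passed without the block. Phf21a, Dtnb, Mettl9, Tasp1, Pip5k1b, Lrch3, Strn3, Zfp148, Rasa2 and Ttc3 did not pass either, with log2 fold changes between -0.16 and 0.17. Gigyf2 had no tested value.

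**Figure D5:**
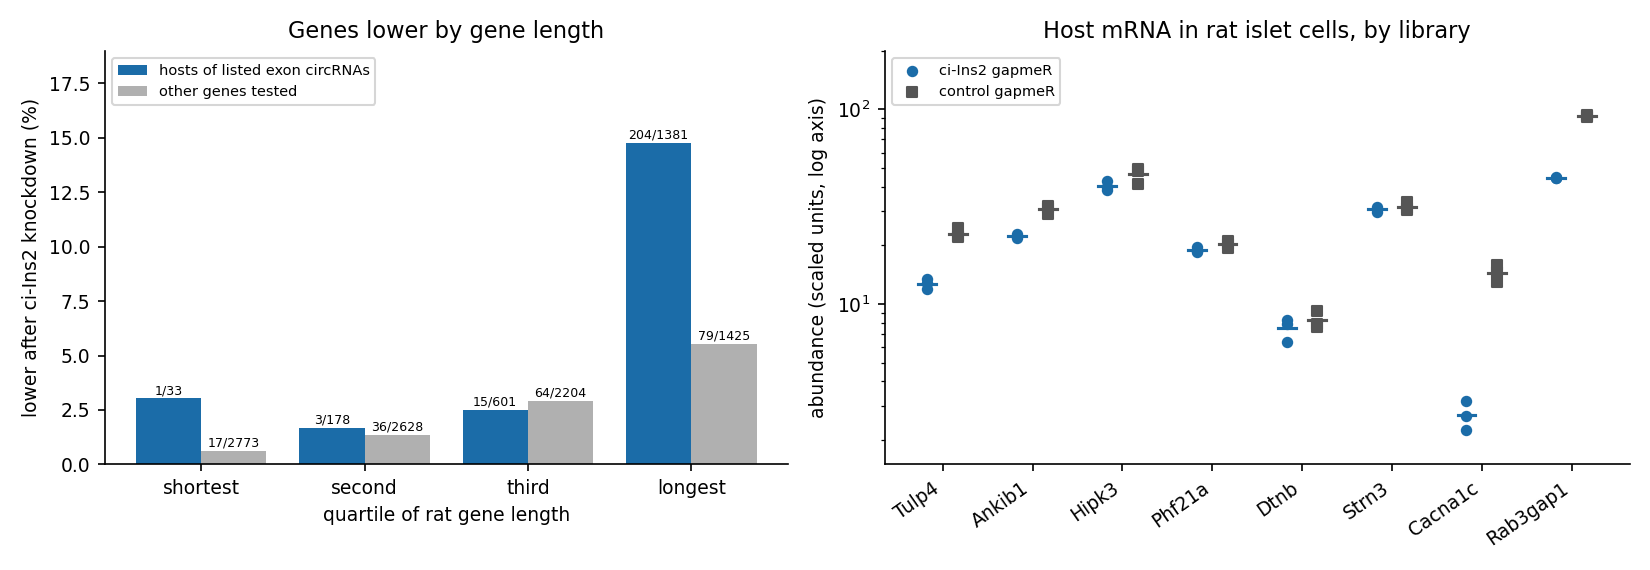
Left, percentage of genes lower after ci-Ins2 knockdown by quartile of rat gene length, with counts above the bars. Hosts of listed exon circRNAs are set beside all other tested genes with a known length, hosts of unlisted ones included. Right, abundance of 8 host mRNAs in each of the 3 ci-Ins2 and 3 control libraries on a log axis, with the group means as lines. Tulp4, Ankib1, Cacna1c and Rab3gap1 do not overlap between groups.

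The most negative changes were on hosts with both abundant and scarce circRNAs. Cacna1c, the pore of an L-type calcium channel, had 3.18, 2.65 and 2.26 units in ci-Ins2 gapmeR libraries, against 15.8, 13.0 and 14.6 in controls, with a log2 fold change of -2.07 (SE 0.12, limma adjusted p = 3.6e-04). Its circ_00061 had a mean of 306 in mouse islets. The others were Frmd5 (log2 fold change -2.42), whose circ_07541 had a mean of 1.99, Fars2, the mitochondrial phenylalanyl-tRNA synthetase (-2.01), whose circ_00505 had a mean of 50.9, the homeobox gene Hmbox1 (-1.94) and Thoc2 of the mRNA export complex THO (-1.83).

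The few hosts that were higher included Galnt18, a glycosyltransferase, with 10.5, 8.19 and 10.2 units in ci-Ins2 gapmeR libraries, against 3.60, 2.72 and 4.41 in controls (log2 fold change 1.23). Fancm of DNA repair (log2 fold change 1.08) and the deacetylase gene Hdac8 (0.68) rose too. Chn1, a GTPase-activating protein for Rac, had 13.5, 12.9 and 13.4 units, against 9.16, 9.02 and 9.23 in controls (log2 fold change 0.49, SE 0.055, limma adjusted p = 0.0053), and its circ_00517 had a mean of 72.6 in mouse islets.

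The hosts were then counted by function, beside 3.5% lower and 1.01% higher of all genes tested, 10.3% and 5.23% of them with the block, and 10.2% lower of all hosts of listed circRNAs. Over all genes tested 488 were lower and 141 higher, so a majority of lower genes is not particular to any list. The lists were chosen with earlier results of these data known, so the counts only describe them. Of ion channels, pumps and calcium stores, 10 of 22 tested hosts were lower and 1, the calcium store sensor gene Stim2, was higher. After Cacna1c these included Cacna1d, the other main L-type channel of the beta-cell, with 47.5, 47.2 and 43.2 units in ci-Ins2 gapmeR libraries, against 73.5, 73.0 and 73.1 in controls (log2 fold change -0.66), and the calcium-activated potassium channel gene Kcnma1 (-0.87). With the block the count was 13 lower and 1 higher.

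Of exocytosis and docking hosts, 5 of 24 were lower and 0 higher, or 10 lower with the block. Dtnb, which is counted in this list, was not called in either fit. Rab3gap1, which switches off the granule GTPase Rab3, had 44.4, 44.8 and 44.6 units in ci-Ins2 gapmeR libraries, against 91.7, 92.7 and 94.0 in controls (log2 fold change -1.04, SE 0.041, limma adjusted p = 8.5e-05). The exocyst gene Exoc4 (-0.86) and Cadps, a priming factor (-0.67), also fell, as did the active zone genes Erc2 and Rims2, named after their values were seen. Of the 4 granule hosts tested, Ptprn2 (-0.60) and Ptprn (-0.37, limma adjusted p = 0.034) were lower, and the Ptprn call was lost without each library in turn but control replicate 1, and also with no filter on low values (limma adjusted p = 0.0655) or no mean-variance trend (0.0523).

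Of receptors, cAMP and kinase signaling, 7 of 38 were lower (16 with the block), among them Pde10a (-0.77), Map4k3 (-0.98) and Plcl1 (-0.89). Of islet transcription factors, 3 of 13 were lower (7 with the block). They were Rfx7 (-0.74), Rfx3 (-0.42), whose call was lost without each library in turn but ci-Ins2 replicate 2, and the neuronal and endocrine factor gene Myt1l (-0.65, limma adjusted p = 0.030). The Myt1l call was lost without each library in turn but ci-Ins2 replicate 1, and also with no filter on low values (limma adjusted p = 0.069) or no scaling (0.0528). In metabolism 0 of 7 were lower and Gpd2, the mitochondrial glycerol-phosphate dehydrogenase, was higher (0.43).

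The lists of general function were described in the same way. Chromatin hosts had 9 of 65 lower and 1 higher (15 and 1 with the block), led by Mbd5 (-1.56), Arid1b (-0.86) and Phf8 (-0.64). Ubiquitin enzymes had 6 of 56 lower and 1 higher (14 and 1 with the block), among them Ubr1 (-1.58) and Birc6 (-1.27), and RNA-binding hosts 8 of 65 lower, among them Cnot2 (-0.61) and Khdrbs3 (-0.56). Secretory pathway hosts had 10 of 58 lower and 1, Snx2, higher, with Eps15 (-1.04), Vps8 (-0.85) and Wdfy3 (-0.64), and hosts described in other tissues 6 of 33 lower (11 with the block), with Mbnl1 (-0.39), whose call was lost without control replicate 3. The median log2 fold change of the tested hosts lay between -0.30 for ion channels and -0.04 for secretory pathway and RNA-binding hosts, beside 0.00 over all genes tested.

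Markers of other cell types were compared between the rat groups. Summed beta-cell markers were 178497 to 183751 units in ci-Ins2 gapmeR libraries and 184006 to 191854 in controls, with 0 of 8 tested markers called. Ductal markers summed to 635 to 693 units in ci-Ins2 gapmeR libraries and 500.1 to 542 in controls, with all 3 tested (Krt19, Krt7 and Krt18) higher, while Sox9, Cftr and Muc1 were below the filter. Acinar markers summed to 8.65 to 16.2 units in ci-Ins2 gapmeR libraries and 6.15 to 38.0 in controls, with 0 of 4 called, and alpha, delta and PP, endothelial, fibroblast and macrophage markers had none called. The part of the keratins in the host results was not tested.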

How the data were processed

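To annotate mouse circRNAs, the authors ran CIRI2 and find_circ on sequencing data published earlier. Per circRNA the authors deposited a signal, the mean of junction reads scaled with DESeq2, from 2 samples of normally fed mice. This mean is printed as theirs, and 6 single-sample columns were left unused. Span is end minus start plus 1. Shares have exact (Clopper-Pearson) 95% intervals, medians binomial ones. The genome build is not named in the table.

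For the rat libraries, the authors aligned reads with STAR 2.5.3a and quantified transcripts of rn6 with RSEM 1.3.0. The deposited relative abundances, a signal whose unit is not named, sum to 10 times the total of TPM in each library, and depth is unknown. The lists of changed genes and pathways (DESeq2 1.12.4 fold changes and p-values, made by the authors) were not used. Values were divided by 10 and summed by name (28656 names). Names at 1 or more in at least 3 of 6 libraries (13927) were tested with limma 3.58.1 in R 4.3.3 on log2(value + 1), which understates changes of low genes, after median-of-ratios scaling (size factors 0.962 to 1.035), with a mean-variance trend, Benjamini-Hochberg adjustment and a threshold of 0.05. The fit was tested on simulated data. Mouse hosts were matched to rat genes by identical symbol. Gene lengths came from the RefSeq annotation of another rat assembly. Where nothing says that a group's samples are separate cultures, p-values measure the spread between these samples.

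The labels share replicate numbers 1 to 3, and the study's reporting summary says that the groups of a replicate came from the same animal. Deviations from the group means correlated at 0.462, 0.493 and 0.419 for equal numbers and at -0.266 to -0.157 for others. The numbers therefore pair the samples. The replicate block used this pairing, and all other fits, counts and divisions did not.

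Named circRNAs were the 15 highest, the 4 longest and 4 shortest, the hosts with the most members and their highest members, hosts the paper names, up to 4 members of each list, and the 10 highest unlisted. Named knockdown hosts were those of the 15 highest, the 5 most negative and 5 most positive without overlap that reached a mean of 5 in either group, and up to 3 called of each list. Members, lists and rules were chosen with earlier results of these data known, and some genes that the rule names are not reported here. Alternatives were other pseudocounts, filters and scaling, no trend, the replicate block, leaving out each library and other sets of circRNAs. Python 3.11.15 with scipy 1.17.1, pandas 2.3.3 and matplotlib 3.10.9 served for the rest.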

Additional observations from a re-analysis of the deposited data

How the results depend on the processing

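Restricting the exon circRNAs moved the listed share, the median span and the median junction mean of listed ones. At a mean of at least 5 they were 65.4%, 9012 bases and 14.4 normalized reads, at a mean of at least 10 they were 78.5%, 8788 bases and 22.9, and with only the highest circRNA of each host they were 53.7%, 6082 bases and 12.5. Asking for a host symbol or a span of at most 100 kb removed no exon circRNA and so tested nothing. All had a symbol, and the longest in the annotation spanned 99646 bases. The median number of listed circRNAs per host was 1 at both minimum means. With only the highest circRNA of each host it was 1 by construction. The replicate block gave 410 lower and 69 higher hosts, in place of 223 and 12. Leaving out each library in turn gave 95 to 161 lower and 8 to 10 higher hosts. Limited to hosts with a listed circRNA of mean at least 10, 127 were lower and 6 higher, from fewer hosts by construction. Other pseudocounts, filters, no scaling and no trend gave 170 to 225 lower and 10 to 14 higher hosts. The division by gene length and by abundance was chosen after seeing the data. For the 37 called hosts of the naming rule no alternative changed a direction, and 458 of their 479 values kept the call. Among the uncalled ones, Mettl9 changed sign without ci-Ins2 replicate 1 (-0.01), Lrch3 without control replicate 1 (0.06) and with no scaling (0.01), and Ttc3 with no scaling (0.02). Apart from Hipk3 and Wdr49, the block changed no call of a named host. The junction means were used without the single-sample columns, so they carry no replicate error and no depth here. Low means cannot be ranked, and the annotation holds only circRNAs that passed the authors' detection.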
